A study of Caenorhabditis elegans with 7 samples.

Results

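The genes described here are *T16G1.4*, *T16G1.5*, *T16G1.6*, *T16G1.7*, *E02C12.6* and *E02C12.8*, 6 genes of *C. elegans* chromosome V that are named as CHK kinase-like. Their probes were found by the sequence name that the array files give each probe, without its isoform letter, or by a RefSeq accession of the gene. This gave 12 of the 43603 probes, and 6 of the 14224 genes tested. The 6 genes were chosen by the differences between tomatidine and vehicle on these arrays, since *T16G1.4*, *T16G1.6* and *E02C12.6* had been called in an earlier look at this comparison. Their differences between the groups are therefore a description. Where limma calls of the 6 genes are counted, they repeat the comparison that chose the genes and are no separate evidence for a response.

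Proteins of the CHK kinase-like family share a fold with choline kinases, which pass a phosphate from ATP to choline. In insects, relatives of this family phosphorylate ecdysteroids, the steroid hormones that control molting, and they are studied there for the inactivation of foreign compounds. The array files and the annotation name no substrate and no role for the 6 worm genes. On the chromosome, the 4 T16G1 genes follow each other with no other protein-coding gene between them, in the order *T16G1.7*, *T16G1.6*, *T16G1.5* and *T16G1.4*. *E02C12.6* and *E02C12.8* are direct neighbors elsewhere on the same chromosome.

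RNA came from whole N2 worms, the Bristol wild type, that were given 25 μM tomatidine, a compound of unripe tomatoes, or the vehicle DMSO from the L4 stage and were collected on adult day 7. Both groups share the strain, the OP50 food and the age. By the labels whose meaning is stated, the groups differ in the compound alone, although one label calls the control worms untreated. Label tags of unstated meaning, 300, 450 and fem, are each shared by a vehicle and a tomatidine array. Vehicle replicate 1 has none of them. The files hold 4 vehicle and 3 tomatidine arrays, each of Cy3-labeled cRNA. A mixture of the separate RNA preparations was hybridized as well, according to the methods, and which array holds it is not stated, so the arrays may not be fully independent.

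Each array gave a signal well above background for between 53.0% and 69.7% of the probes. Negative control spots had a mean net signal of 75.1 to 114.4 on 5 arrays, of 237.2 on tomatidine replicate 1 and of 424.4 on vehicle replicate 2. Slide 2 held vehicle replicate 4 with tomatidine replicates 2 and 3, and slide 1 held the remaining arrays. Of 33 markers of worm tissues, 27 were well above background on all 7 arrays, and the 4 sperm markers on at most 4 arrays. Limma called 0 of the tested markers, where it called 11 of all 14224 genes higher (0.0773%), so this count is near the background. In RNA of whole worms, fewer cells of a type and less RNA per cell cannot be told apart.

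*T16G1.6* had the clearest separation of the 6 genes. Its deposited intensity, which is corrected for background but not matched between arrays, was 175.2, 350.3, 77.4 and 165.1 on vehicle replicates 1 to 4, and 690.8, 1441 and 875.1 on tomatidine replicates 1 to 3. To compare arrays, the log2 intensities of each array were brought to a common mean and spread, and values on this scale are called scaled log2 intensities below. *T16G1.6* then read 7.04, 7.505, 6.96 and 7.66 on the vehicle arrays, and 9.54, 10.59 and 9.86 on the tomatidine arrays. The tomatidine arrays all lay above the vehicle arrays, and the lowest of them exceeded the highest vehicle array by 1.89. The difference was 2.71 log2 units (standard error 0.30), or 6.53-fold, from 7.29 ± 0.34 (SD, n = 4) to 9.999 ± 0.54 (SD, n = 3).

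*T16G1.4*, at the far end of the T16G1 group, had scaled log2 intensities of 7.64, 7.20, 7.34 and 8.10 on the vehicle arrays, and of 9.63, 10.60 and 9.50 on the tomatidine arrays. Here too no vehicle array reached a tomatidine array, with a gap of 1.39. The difference was 2.34 log2 units (standard error 0.31), or 5.05-fold.

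*E02C12.6* had the largest difference and the widest spread. Its deposited intensities were 94.9, 293.9, 22.2 and 132.3 on the vehicle arrays, and 702.1, 995.3 and 375.1 on the tomatidine arrays. On the scaled log2 scale the vehicle arrays read 6.19, 7.23, 5.13 and 7.35, and the tomatidine arrays 9.57, 10.08 and 8.68. The groups did not overlap, with a gap of 1.33, and the signal on vehicle replicate 3 was not well above background. The difference was 2.97 log2 units (standard error 0.48), or 7.82-fold. The SD within groups was 0.92, and 96.2% of the genes tested had a smaller one, while the median over all genes was 0.34. Without vehicle replicate 1 the difference was 2.87, and without tomatidine replicate 2 it was 2.65, and limma called *E02C12.6* in neither case. Without vehicle replicate 3 the difference was 2.52, the lowest without 1 array, and limma still called *E02C12.6*.

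**Figure D1:**
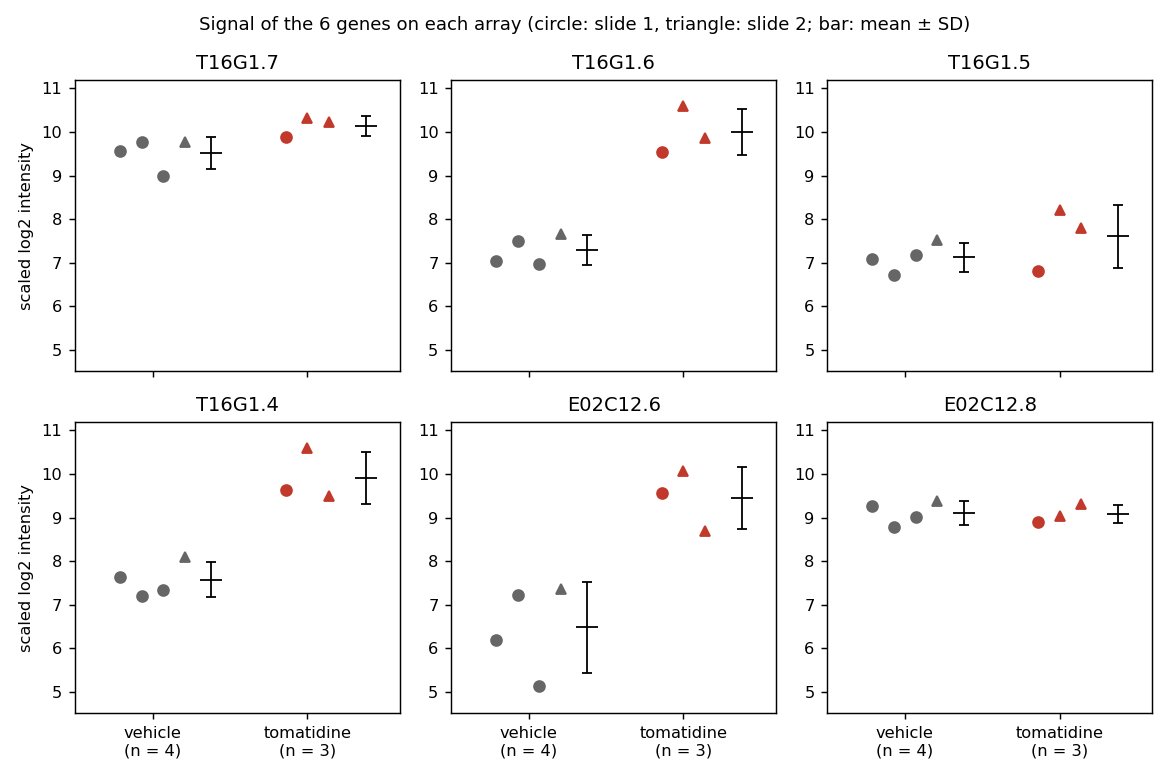
Each panel shows 1 gene, with the scaled log2 intensity of its probe on the vertical axis, the 4 vehicle arrays in gray and the 3 tomatidine arrays in red. Circles are arrays of slide 1, triangles are arrays of slide 2, and bars give the mean ± SD of a group. *T16G1.6*, *T16G1.4* and *E02C12.6* separate by 1.33 or more, *T16G1.7* by 0.10, and *T16G1.5* and *E02C12.8* overlap. Heights are comparable within a panel and not between panels.

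The other 3 genes differed less. *T16G1.7* read 9.57, 9.78, 8.99 and 9.76 on the vehicle arrays, and 9.89, 10.32 and 10.22 on the tomatidine arrays. The tomatidine arrays were above all vehicle arrays by only 0.10, and with the raw median signal in place of the processed one the groups overlapped. Its difference was 0.62 log2 units (standard error 0.24).

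*T16G1.5*, which lies between *T16G1.6* and *T16G1.4*, read 7.09, 6.71, 7.16 and 7.52 with vehicle and 6.80, 8.20 and 7.80 with tomatidine. Tomatidine replicate 1 fell inside the range of the vehicle arrays, and the other tomatidine arrays were above it. The difference was 0.48 log2 units (standard error 0.36). It was 0.88 without tomatidine replicate 1 and 0.18 without tomatidine replicate 2. The side-by-side values within the T16G1 group were thus 0.62, 2.71, 0.48 and 2.34 log2 units in the order of the genes.

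*E02C12.8*, the neighbor of *E02C12.6*, read 9.26, 8.78, 9.002 and 9.38 with vehicle and 8.90, 9.02 and 9.32 with tomatidine. The groups overlapped over most of their range. The difference was -0.03 log2 units (standard error 0.23). Its vehicle and tomatidine SDs were 0.27 and 0.22.

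Limma called 3 of the 6 genes higher and 0 lower at an adjusted p under 0.05, where it called 11 genes, or 0.0773%, of all genes tested higher. It called 0 genes, or 0%, lower. Without adjustment, a p under 0.05 was reached by 4 of the 6 genes on the higher side and 0 on the lower side, where 107 of all genes (0.752%) were higher and 67 (0.471%) lower. The count of 3 fell to 2 under several alternatives, among them the slide as a block, the 75th percentile shift, the raw median signal and normexp with quantile normalization, to 1 with limma without trend and to 0 with the general test for groups that the methods name, after adjustment. With the label tags that join 3 tomatidine arrays to 3 vehicle arrays as a block, it stayed at 3 while the count over all genes was 23. Every tomatidine array was above every vehicle array for 4 of the 6 genes and for 0.816% of all genes, and below for 0 of the 6 and 1.27% of all. The choice of the 6 genes used this comparison, so nothing is read from these shares.

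Several probes report on the same gene, and they differed little from each other. The 3 probes of *T16G1.6* gave differences of 2.57, 2.71 and 2.74 log2 units. On the probe with the lowest vehicle mean, the arrays read 6.91, 6.41, 6.35 and 7.56 with vehicle and 9.03, 10.38 and 9.24 with tomatidine. The 3 probes of *T16G1.4*, one of which the files list by accession, gave 2.27, 2.30 and 2.34. All 6 of these probes were well above background on all 7 arrays. In each of them every tomatidine array was above every vehicle array, as in 0.746% of all 29104 probes, and nothing is read from this, since these genes were chosen for it. Probes of one transcript on one array share the same labeled RNA and are not replicates.

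*E02C12.8* also has 3 probes, which are listed for isoforms b and c. The 2 probes for isoform c gave differences of -0.03 log2 units each, with standard errors of 0.27 and 0.24. The probe for isoform b was well above background on 1 of 4 vehicle and 2 of 3 tomatidine arrays and gave -0.07 (standard error 0.46). In the fit with every probe tested on its own, 6 of the 12 probes were called higher, where 0.0584% of 29104 probes were. The probe of *E02C12.6* was not among them, and it is the only probe of that gene, as are those of *T16G1.5* and *T16G1.7*.

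**Figure D2:**
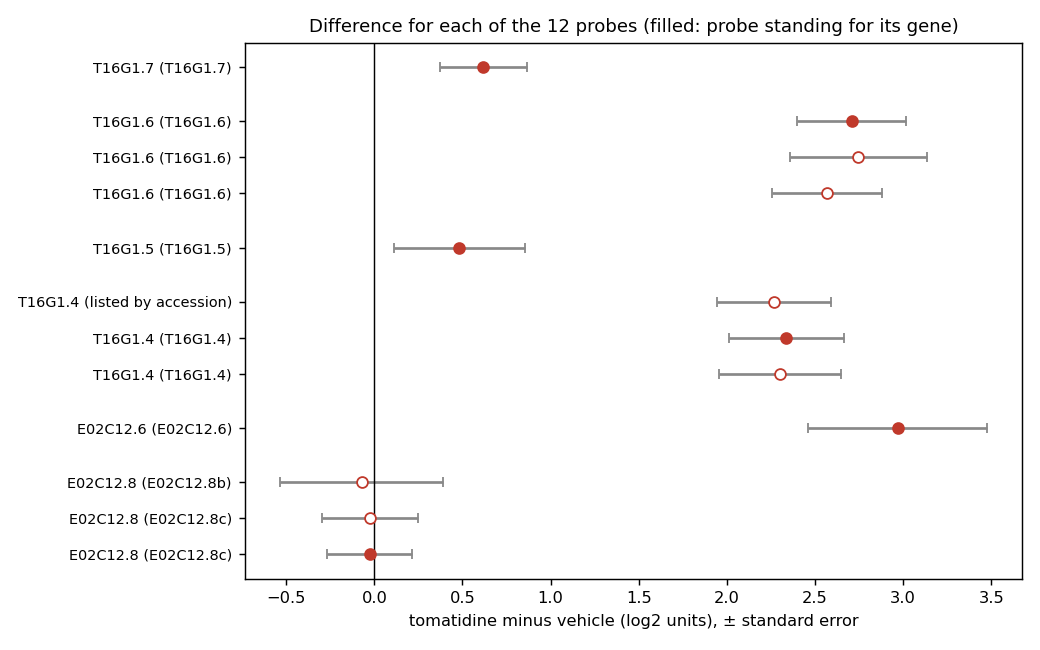
The difference between tomatidine and vehicle in log2 units is given for each of the 12 probes, with bars of 1 standard error from the fit of all 29104 probes. Names in brackets are those in the array files, and filled points are the probes that stood for their gene. The 3 *T16G1.6* probes lie at 2.57 to 2.74, the 3 *T16G1.4* probes at 2.27 to 2.34 and the 3 *E02C12.8* probes at -0.07 to -0.03.

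The arrays within a group were not alike for these genes. Vehicle replicate 4 was the highest vehicle array for 5 of the 6 genes, as it was for 31.9% of all genes tested. Tomatidine replicate 2 was the highest tomatidine array for 5 of the 6, as it was for 23.5% of all genes. The exceptions were *T16G1.7*, whose highest vehicle array was vehicle replicate 2, and *E02C12.8*, whose highest tomatidine array was tomatidine replicate 3.

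Within the tag pairs, each of 1 tomatidine and 1 vehicle array, the differences were unequal. For *T16G1.6* they were 2.04, 3.63 and 2.202 log2 units, in the order of tomatidine replicates 1, 2 and 3, and for *T16G1.4* they were 2.43, 3.26 and 1.39. For *E02C12.6* they were 2.34, 4.95 and 1.33, the second of which is set against vehicle replicate 3, the array where this gene was not well above background. The pair with tomatidine replicate 2 gave the highest value for each of these 3 genes and also for *T16G1.5* (0.09, 1.04 and 0.28) and *T16G1.7* (0.10, 1.33 and 0.46). For *E02C12.8* the pairs gave 0.12, 0.02 and -0.07.

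The slides gave like values for *T16G1.6*, at 2.37 log2 units within slide 1 and 2.57 within slide 2, and for *T16G1.7*, at 0.44 and 0.51. *T16G1.4* gave 2.24 and 1.94. *E02C12.6* gave 3.39 and 2.03, and with the slide as a block its difference was 2.75 and was no longer called. *T16G1.5* was -0.18 within slide 1 and 0.48 within slide 2, so that its direction differed between the slides. *E02C12.8* gave -0.12 and -0.21. Slide 1 holds 1 tomatidine array and slide 2 holds 1 vehicle array, so each of these values rests on a single array on one side.

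The differences of the 3 called genes were smaller under some other treatments of the signal and nearly unchanged under others. With the 75th percentile shift they were 2.71 for *T16G1.6*, 2.32 for *T16G1.4* and 2.94 for *E02C12.6*, which was not called there (limma adjusted p = 0.0853). With normexp background correction and quantile normalization they were 1.74 for *T16G1.6*, 1.52 for *T16G1.4* and 1.58 for *E02C12.6*, or 3.35-fold, 2.86-fold and 2.99-fold, and *E02C12.6* was no longer called (limma adjusted p = 0.0817). With the raw median signal they were 1.96, 1.698 and 1.80, and *T16G1.4* was no longer called (limma adjusted p = 0.0544). The order of the 3 genes changed as well. *E02C12.6* was highest with the processed signal, and *T16G1.6* with normexp and quantile normalization and with the raw median signal. The normexp correction added an offset of 50 to the intensities, and the raw median signal had no background removed. How far these settings account for the smaller differences was not tested. The 4 T16G1 genes and *E02C12.6* were higher with tomatidine under every alternative that gave a value.

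**Figure D3:**
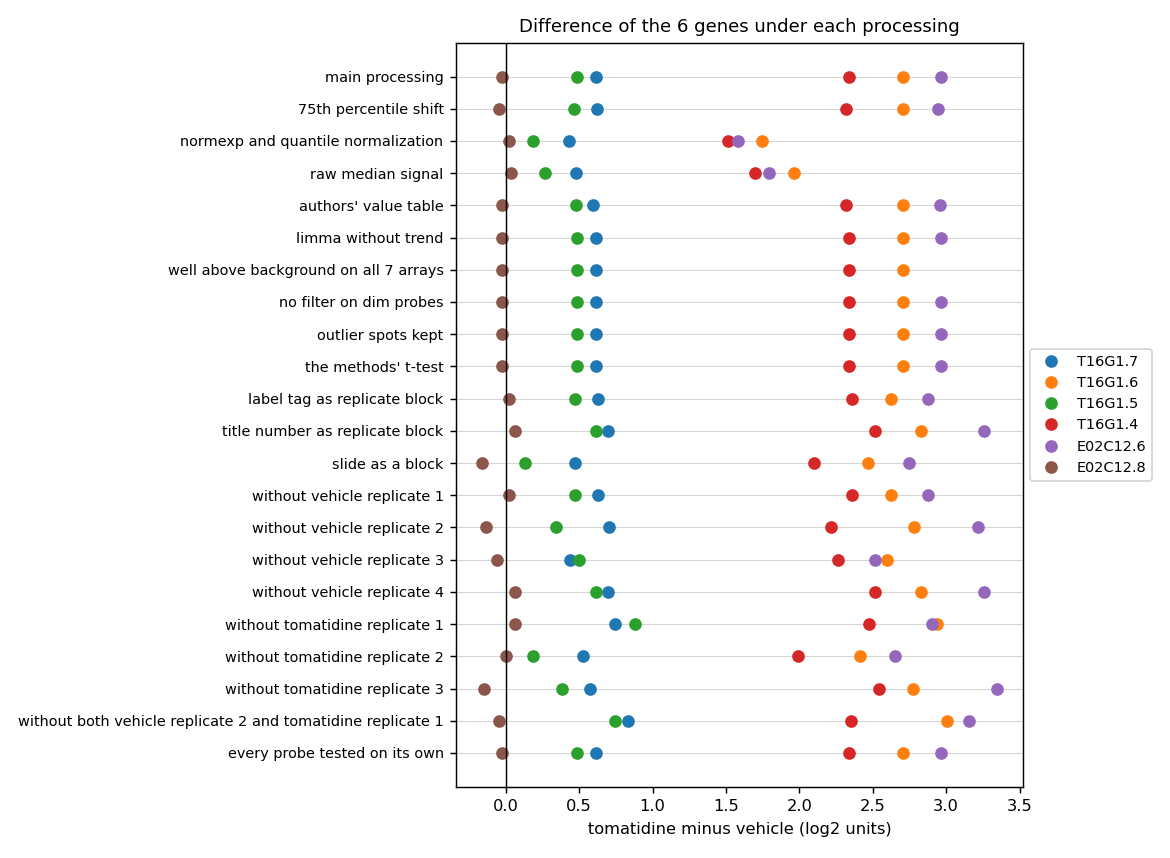
Each row is a processing of the same arrays and each color is 1 of the 6 genes, with the difference between tomatidine and vehicle in log2 units on the horizontal axis. *T16G1.4* runs from 1.52 to 2.54, *T16G1.6* from 1.74 to 3.01 and *E02C12.6* from 1.58 to 3.35, and *E02C12.8* stays between -0.16 and 0.07. *E02C12.6* has no value where a probe had to be well above background on all 7 arrays.

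The genes around both groups were examined to see how far a difference extends along the chromosome. Of the 10 protein-coding genes on each side of each group, 40 in all, 37 had a probe and 26 were tested. Limma called 0 higher and 0 lower, where 0.0773% and 0% of all genes were. A count of 0 among 26 is thus near the background and does not show where a difference ends. Before adjustment only *K07B1.7* had a p under 0.05, on the lower side, where 0.471% of all genes were. Its tomatidine arrays were all below its vehicle arrays, as they were for 1.27% of all genes. The neighbors' median difference was -0.01 log2 units, against -0.03 over all genes. The largest differences were -0.39 for *K07B1.7* (standard error 0.18), -0.37 for *hum-2*, a myosin (standard error 0.20), 0.30 for *lipl-1*, a lipase (standard error 0.22), and 0.27 for *nid-1*, the basement membrane protein nidogen (standard error 0.25), and none passed the test.

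The genes directly beside the groups gave no signal well above background. The 11 genes with a probe that were not tested had 1 probe each, and these were well above background on 0 of the 7 arrays. They include *T16G1.2* and *T16G1.3*, on either side of the T16G1 group, and *gpa-3* and *E02C12.9*, on either side of the E02C12 pair, as well as *E02C12.10*, *E02C12.11* and *E02C12.12*. The intensity of *T16G1.3* was 5.63, 26.3, 4.79 and 5.60 on the vehicle arrays and 9.83, 5.75 and 5.61 on the tomatidine arrays, so only a bound on its level is known. The nearest tested genes outside the T16G1 group were *pqn-67* on one side, at -0.26 (standard error 0.35), and *T16G1.9* on the other, at 0.13 (standard error 0.21). The annotated span of *T16G1.2* overlaps that of *T16G1.7*, and *anr-33*, an antisense RNA, overlaps *E02C12.8*. The positions and sequences of the probes were not used here, so how much of a signal comes from an overlapping or similar gene was not tested.

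**Figure D4:**
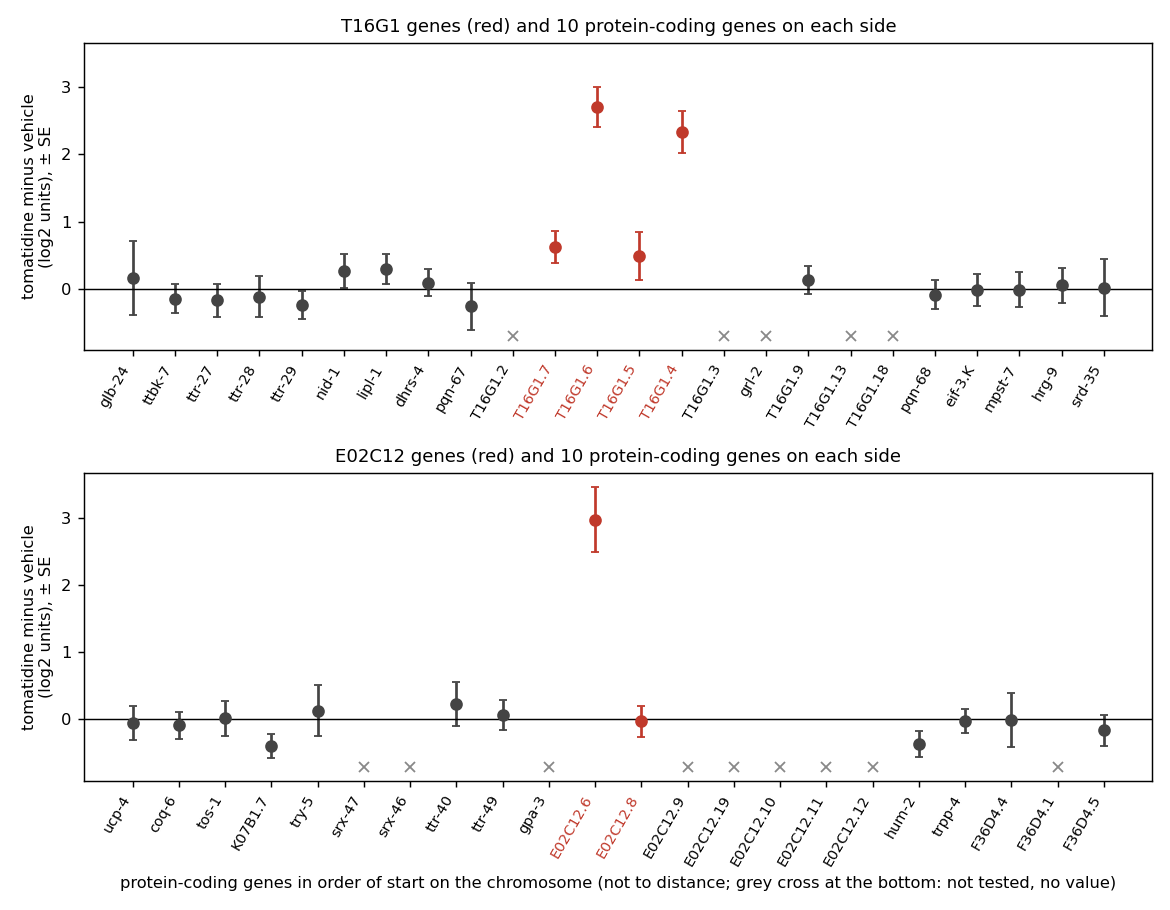
The difference between tomatidine and vehicle in log2 units, with bars of 1 standard error, is drawn for the 6 genes in red and for 10 protein-coding genes on each side of either group, in the order of their starts on chromosome V. Gray crosses at the bottom mark genes that were not tested and carry no value. *T16G1.6* at 2.71, *T16G1.4* at 2.34 and *E02C12.6* at 2.97 stand beside genes between -0.39 and 0.62.

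The choline kinases and the enzymes that follow them in phospholipid synthesis were listed because the 6 proteins are named after the choline kinase fold. Of 14 names, 13 were in the annotation and on the array, and 11 were tested. Limma called 0 of them in either direction, where 0.0773% of all genes were called higher and 0% lower. Before adjustment 0 were under 0.05, where 0.752% of all genes were on the higher and 0.471% on the lower side, so a count of 0 among 11 is near the background. The median difference was 0.00 log2 units. The largest were 0.22 for *pmt-1*, a methyltransferase on the way to phosphocholine (standard error 0.21), and -0.17 for *pcyt-1* (standard error 0.21). The *pcyt-1* enzyme activates phosphocholine with CTP. Next came -0.14 each for *pcyt-2.1*, its counterpart for phosphoethanolamine (standard error 0.22), and *cka-1*, a choline kinase (standard error 0.19). For *cka-1* the vehicle arrays read 13.81, 13.72, 13.60 and 13.35 and the tomatidine arrays 13.46, 13.58 and 13.42, and the groups overlapped.

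The genes whose pattern over the 7 arrays was most like that of *T16G1.6* were sought by the mean absolute difference between profiles, each with its own mean removed. Among the 6 genes, *T16G1.4* was the nearest to *T16G1.6*, at 0.30 log2 units per array, and *E02C12.6* followed at 0.50, while *T16G1.7*, *T16G1.5* and *E02C12.8* were at 1.02, 1.09 and 1.34. The median over the 14218 other genes was 1.34. Of those, the nearest were *cyp-34A7* at 0.34, *srbc-16* at 0.38, *cyp-13A3* at 0.41, *cyp-33D1* at 0.42 and *cyp-33C2* at 0.56. The cyp genes encode oxidizing enzymes of the cytochrome P450 family, and *srbc-16* encodes a predicted chemoreceptor. *srbc-16* was well above background on 1 of 4 vehicle arrays and *cyp-13A3* on 2 of 4, so their vehicle levels are partly bounds and their distances are approximate.

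For *E02C12.6* the nearest other genes were *cyp-33D1* at 0.45, *cyp-34A7* at 0.48, *cyp-13A3* at 0.50, *srbc-16* at 0.59 and *pgp-1* at 0.61, against a median of 1.48. *pgp-1* encodes a P-glycoprotein, a transporter that exports foreign compounds. It read 6.91, 7.32, 5.81 and 7.34 on the vehicle arrays and 8.69, 8.89 and 8.15 on the tomatidine arrays. Its lowest vehicle array was vehicle replicate 3, as for *E02C12.6* and for 29.0% of all genes tested. The same held for *cyp-33D1*, *cyp-34A7* and *cyp-13A3*, and not for *srbc-16*. This measure includes the difference between the groups, so genes with a like difference rank high by construction.

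**Figure D5:**
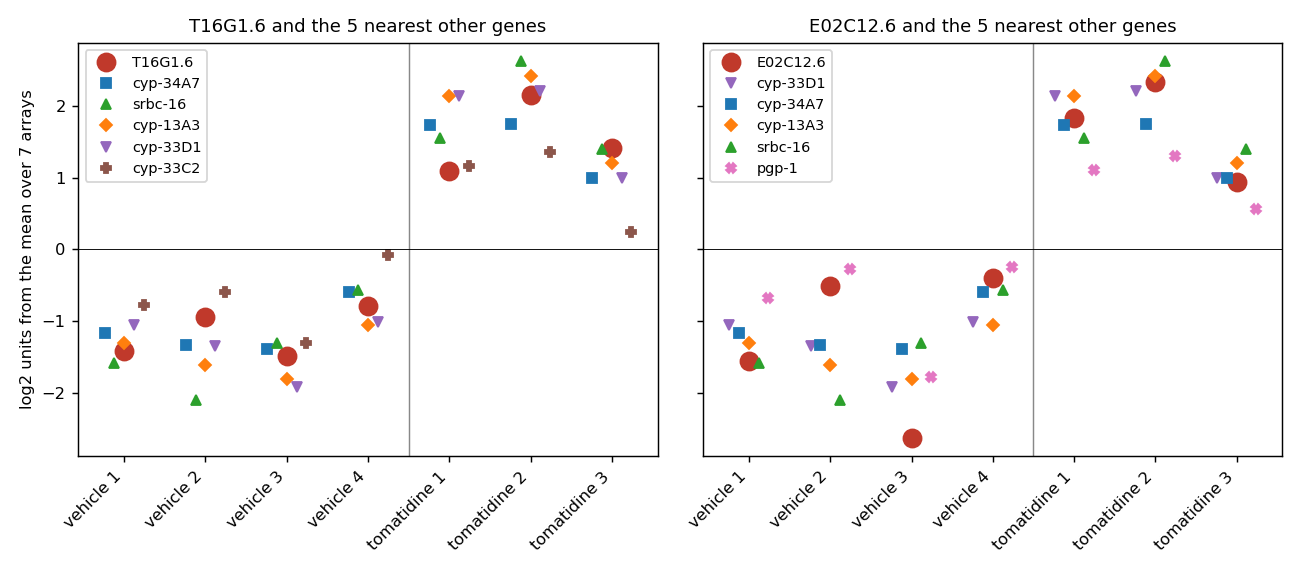
The scaled log2 intensity on each array is shown as its distance from the gene's own mean over the 7 arrays, for *T16G1.6* (left) and *E02C12.6* (right) and the 5 other genes nearest to each. A vertical line parts the 4 vehicle from the 3 tomatidine arrays. All genes drawn lie below 0 on the vehicle arrays and above 0 on the tomatidine arrays, and *E02C12.6* is lowest on vehicle replicate 3.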

How the data were processed

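Cy3-labeled cRNA of 4 vehicle and 3 tomatidine samples was hybridized to Agilent *C. elegans* arrays. The authors extracted the deposited files with Feature Extraction 11.5.1.1, and the processed signal, an intensity, had background removed and spatial trends corrected, without multiplicative detrending on vehicle replicate 2. The values in the table the authors deposited are a score: each array's log intensities as z-scores. Of 45220 spots, control and outlier spots were left out. Of 43603 probes, 34544 matched 1 gene of the WBcel235 annotation, 9059 did not match, and 86 had every spot marked as an outlier on some array.

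Log2 intensities were turned into z-scores within arrays, and the scale was restored with the arrays' mean SD and overall mean. Probes had to be well above background on 3 or more arrays, and the brightest such probe by its mean represented the gene. Groups were compared in limma 3.58.1 under R 4.3.3 (lmFit, eBayes with trend, two-sided) with 5 residual degrees of freedom and Benjamini-Hochberg adjustment at 0.05. The script was tested on simulated data. The number of arrays limits the precision, and p-values measure the spread between these arrays, which may be technical in part.

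The members and lists were chosen with earlier results of these data known. The genes named are the 6 members, for each list those past the test plus the largest differences up to 4, and the 5 genes nearest in pattern to *T16G1.6* and to *E02C12.6*. A list of other CHK family genes was to be set by protein similarity and was not analysed here. For arrays with a common label tag, what remained after subtracting group means was correlated over genes (not independent replicates). The correlations were 0.61, 0.19 and 0.51 in the order of tomatidine replicates 1, 2 and 3. Vehicle replicate 1, which has no such tag, gave 0.35 with each of tomatidine replicates 2 and 3, above the 0.19. The meaning of the tags is not stated, and these correlations do not settle whether they pair the arrays. The main fit therefore had no block, and the tags were a block only in an alternative fit. That fit left 2 residual degrees of freedom, and vehicle replicate 1, alone in its block, added nothing to its differences. Coordinates are not given, since the array was designed on another build than the annotation.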

Additional observations from a re-analysis of the deposited data

How the results depend on the processing

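The members were chosen by this comparison, so the calls below show only how it depends on the processing. Across 21 alternatives, *T16G1.6* was called under 20, *T16G1.4* under 18 and *E02C12.6* under 11 of the 20 that gave it a value. *E02C12.6* was not called without vehicle replicate 1 or without tomatidine replicate 2, with the 75th percentile shift, normexp and quantile normalization, limma without trend, every probe tested on its own or the slide as a block, or without both vehicle replicate 2 and tomatidine replicate 1. *T16G1.4* was not called with limma without trend or the raw median signal. The methods' t-test, which they name for comparing groups in general and not for the arrays, called 0 members and 0 genes after Benjamini-Hochberg adjustment. At the p threshold they give with it, unadjusted, it called 86 genes higher and 136 lower, with 3 members among them. For the arrays the methods name a cut-off on scaled differences of z-scores, which was not run here. Limma without trend called 1 member and 6 genes. The count of genes was 5 with probes well above background on all 7 arrays, and 7 to 11 without 1 array, with the lowest count without tomatidine replicate 2. *T16G1.5* and *T16G1.7* were called under 0 alternatives.

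With the label tags as a replicate block, 23 genes were called, the 11 among them, and the members called stayed at 3. With the title numbers as a replicate block, 29 were called, but arrays that share a title number gave r of -0.53, -0.45 and -0.33, and share only a number. The difference of *E02C12.8* changed sign to 0.024 with the tag block, 0.066 with the title block, 0.022 with normexp and quantile normalization and 0.038 with the raw median signal, and ran from -0.15 to 0.066 without 1 array. The neighboring and choline pathway lists had 0 genes called under all 21 alternatives. Over all genes tested, the alternatives called between 0 and 29, so a count of 0 in these short lists is near the background. The list of other CHK family genes was not run, and the files hold no mean signal, so the median signal was used. The cause of these changes was not tested.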
